A study of Homo sapiens with 8 samples.

Results

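SJRH30 is an established human rhabdomyosarcoma cell line, grown here in serum-containing medium, and the late state described is that of cells kept for 24 h in a chamber at 1% oxygen. It was compared with cells taken at 0 h, before hypoxia began. The comparison rests on the 2 arrays titled 24 h and the 2 titled 0 h, chosen by those titles, and so on 4 of the 8 arrays of a time course that also holds 2 arrays at 6 h and 2 at 12 h. Replicates are called biological in the labels, and nothing else is said of how separate the cultures were. The labels name no treatment other than hypoxia, and all arrays come from this 1 line. No normal-oxygen culture of 24 h was analysed here, so hypoxia and a further day in culture cannot be told apart in any value below.

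Each array measured messenger RNA with short probes near the 3′ ends of transcripts, and each value is a probe set's level on the log2 scale after robust multi-array averaging (RMA), so that a difference of 1 is a 2-fold change. A gene was called higher or lower when the moderated test of limma, fitted to all 8 arrays, gave a Benjamini-Hochberg adjusted p under 0.05 over 11963 genes. Changes are 24 h minus 0 h with the standard error (SE) of that fit, and pairs of array values are given as replicate 1 and then replicate 2, with n = 2 at each time. RMA brings all arrays to nearly the same distribution (array medians 6.69 to 6.73), so every change is relative to the other transcripts of its array.

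Cells that lack oxygen stabilise the alpha subunits of the hypoxia-inducible factors (HIF), which bind short DNA elements with the core letters ACGTG and switch on genes for glucose uptake, glycolysis and oxygen delivery. With longer exposure, cells are also known to save energy: they restrain respiration and the costly production of ribosomes and proteins. Alveolar rhabdomyosarcoma is a tumour of the skeletal muscle lineage, in which muscle precursor cells express the determination factor MYOD1 but stop short of forming muscle fibres. Its driver is usually the fusion protein PAX3-FOXO1, a transcription factor that holds a set of receptor and developmental genes at high levels.

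The labels call the cells muscle fibroblasts, and the defining markers were checked against that. Levels are placed here by percentile among the mean levels of all genes, a rough guide because probe sets differ in brightness. The muscle genes ACTC1, MYOD1, CHRNA1 and MYOG lay at percentiles 99.7, 97.3, 95.5 and 85.3, while MYF5 (10.3), MYH8 (11.2) and MYH3 (7.0), of embryonic and neonatal muscle, were low and CHRND (45.8) and TNNC1 (49.4) lay in between. The median of the 12 muscle markers was 76.7. Of 11 fibroblast markers COL3A1 lay at 92.1 and COL1A1 at 62.7, but DCN at 24.0, FAP at 13.6 and POSTN at 4.2, with a median of 37.5. Median percentiles were 20.9 for endothelial, 27.6 for epithelial, 13.5 for adipocyte and 22.6 for neuronal markers. Both lists were mixed, with muscle-lineage markers from 7.0 to 99.7 and fibroblast markers from 4.2 to 92.1. The median was highest for muscle-lineage markers.

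Of 11963 genes, 1028 were higher at 24 h, or 8.59%, and 1095 lower, or 9.15%, together 17.7%. In all 1028 and all 1095 the 2 arrays of 24 h did not overlap the 2 of 0 h. Separation of the arrays in a called gene named below thus adds nothing to its call. Rises were larger than falls: 67 genes rose and 10 fell 2-fold or more, 244 rose and 77 fell 1.5-fold or more, and the median called change was 0.38 upward and -0.32 downward. The median over all genes was -0.01. Without 0 h replicate 1 there were 490 higher and 335 lower genes, and without 0 h replicate 2 there were 494 and 297, where the single 0 h array left takes its spread from the other times. Leaving out any other array kept the total within 1.5 times, although 697 genes were lower without 24 h replicate 1. Replicates correlated at 0.999 at 0 h and 0.998 at 24 h across genes, which are not independent replicates. The 24 probe sets for poly-A control RNA, added during preparation in a fixed amount, were higher at 24 h by a mean of 0.65 (range 0.51 to 0.77), and 18 hybridisation controls by 0.19. The part of this in the results was not tested. In these bulk samples, a change in the make-up of the culture and a change in RNA per cell cannot be told apart.

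**Figure D1:**
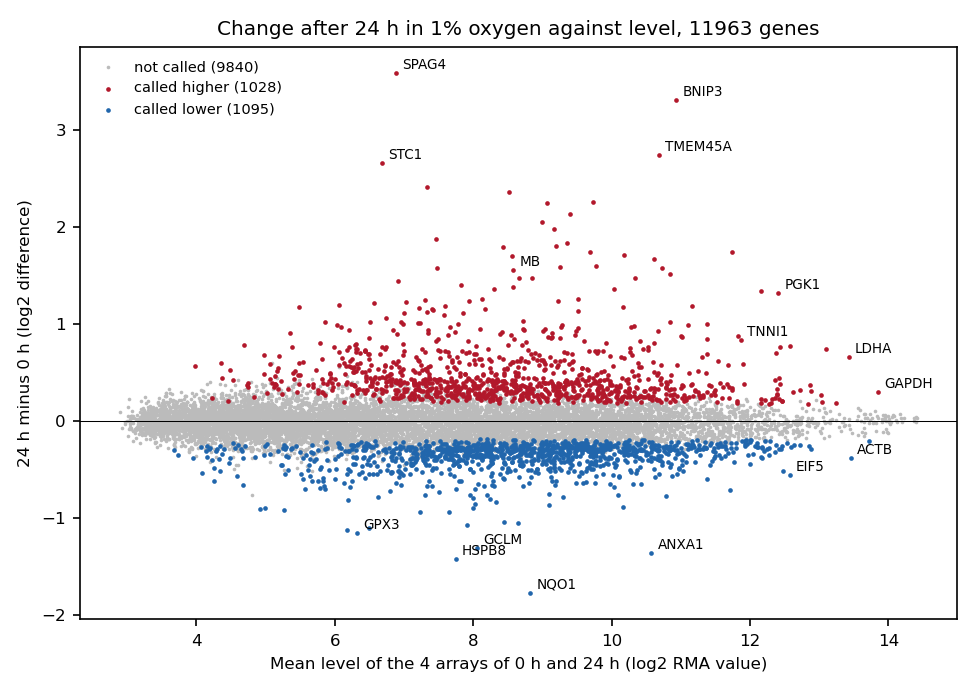
Each point is 1 of 11963 genes, with the mean log2 level of the 4 arrays of 0 h and 24 h on the x axis and the log2 difference, 24 h minus 0 h, on the y axis; red points are the 1028 genes called higher and blue points the 1095 called lower. Called genes lie at all levels, and the largest changes, such as SPAG4 at 3.59 and NQO1 at -1.77, are upward more often than downward.

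Gene lists are described below by the number of measured members called in each direction, set against 8.59% higher and 9.15% lower among all genes, and by their median change, set against -0.01. The members were chosen by function and no test was made of a list. Where leaving out a single array moved a count by over 1.5 times, the new count is given with the arrays concerned, except where a count of 0 became 1. Leaving out a 0 h, 6 h or 24 h array also lowered the calls among all genes, most without a 0 h array. Counts from those fits are therefore not to be set against 8.59% and 9.15%.

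**Figure D2:**
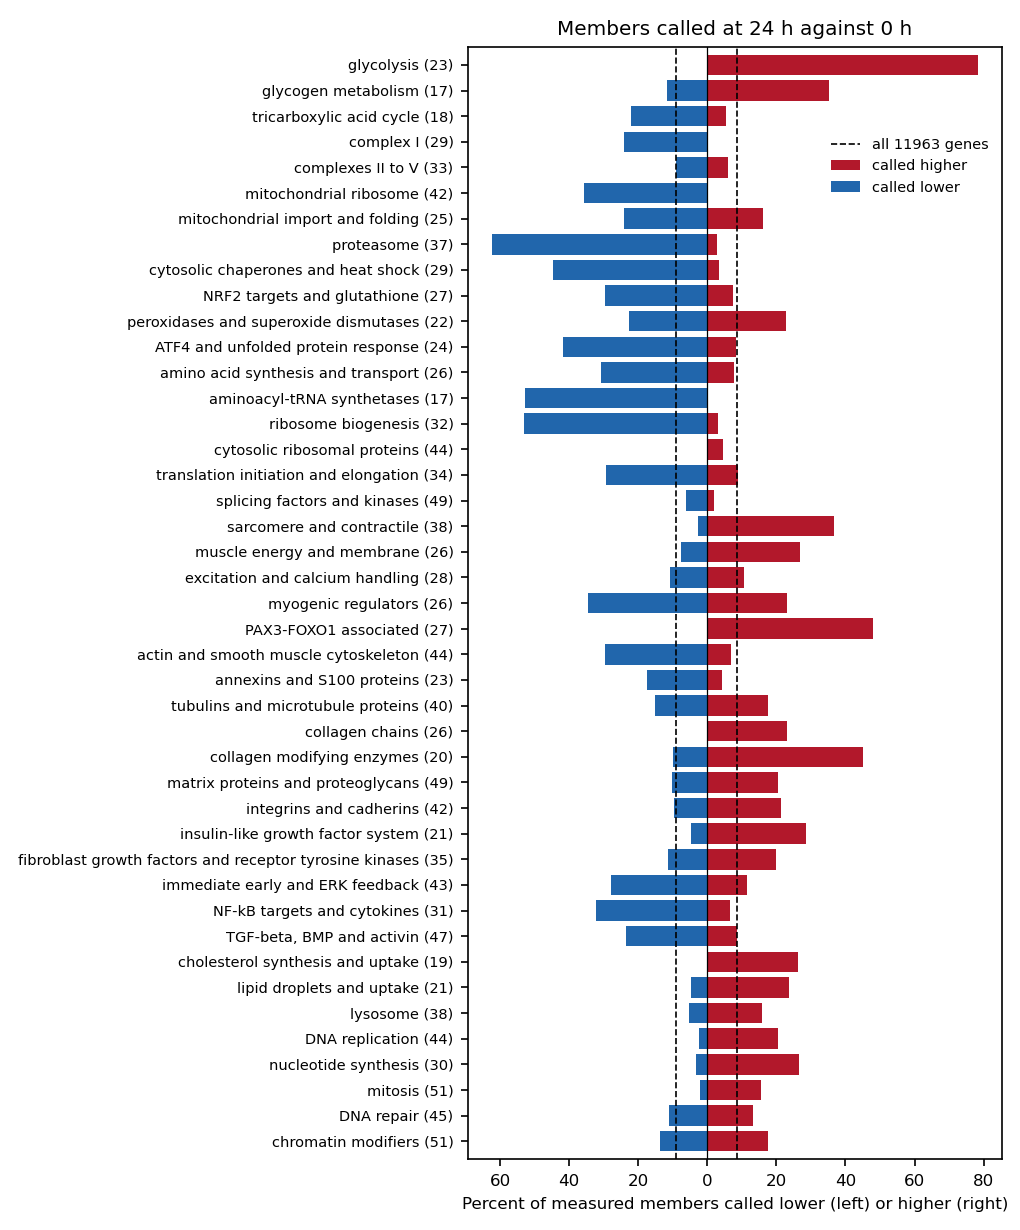
Bars give the percent of each list's measured members (number in brackets) called higher (red, to the right) or lower (blue, to the left) at 24 h against 0 h, and the dashed lines mark 8.59% and 9.15%, the shares among all genes. Direct HIF targets, of which 25 of 27 were higher, are not plotted. The longest bars to the right among the lists plotted are those of glycolysis (18 of 23) and PAX3-FOXO1 associated genes (13 of 27), and the longest to the left that of the proteasome (23 of 37).

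Genes that take up glucose and run it to lactate were mostly called higher. Of 23 measured genes of glycolysis 18 rose and 0 fell (limma; 19 and 0 at an unadjusted p under 0.05), with a median change of 0.77. The glucose transporter gene SLC2A1 was at 8.16 and 8.19 at 0 h and 10.18 and 10.14 at 24 h, a change of 1.98 ± 0.05 SE or 3.95-fold (adjusted p = 1.62e-06), and a second, dimmer probe set, not called, at 0.16. Platelet-type phosphofructokinase, PFKP, was at 8.79 and 8.83 at 0 h and 10.47 and 10.65 at 24 h (1.75 ± 0.08 SE, adjusted p = 1.2e-05). In both genes the arrays of 24 h lay well above those of 0 h. PFKFB3, whose enzyme makes the activator of phosphofructokinase, rose by 1.81 ± 0.07 SE, PGK1 by 1.32 and the neuronal enolase gene ENO2 by 1.18. Hexokinase 2, HK2, which traps glucose in the cell, rose by 1.71 ± 0.07 SE, but a second HK2 probe set was called lower at -0.37. The wider list of direct HIF targets, chosen because hypoxia is known to raise them, had 25 of 27 genes higher, and is not described further. The isoenzymes LDHB, PFKM and PKM, abundant here, were not called, at 0.03, 0.02 and -0.02.

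Glycogen is the cell's stored glucose, and both its building and its breakdown draw on the genes of this group. Of 17 measured genes 6 rose and 2 fell. PPP1R3C, a subunit that brings a phosphatase to glycogen and favours its synthesis, was at 7.50 and 7.74 at 0 h and 9.0 and 8.95 at 24 h (1.36 ± 0.09 SE, 2.56-fold, adjusted p = 8.01e-05). Phosphoglucomutase, PGM1, which links glucose 1-phosphate to glycolysis, rose by 1.19 ± 0.05 SE. The branching enzyme gene GBE1 was at 10.90 and 10.86 at 0 h and 11.91 and 11.85 at 24 h (1.00 ± 0.05 SE). The primer protein gene GYG2 rose by 0.63 and muscle phosphorylase, PYGM, which releases glucose from glycogen, by 1.00 ± 0.12 SE, from 6.35 and 6.61 to 7.31 and 7.64. The brain isoform PYGB stood lower (-0.31 ± 0.07, call lost without either 0 h array or 24 h replicate 1, adjusted p up to 0.144), and glycogen synthase itself, GYS1, was not called (0.16, adjusted p = 0.0812). The lower count became 0 without either 0 h array and 1 without either 24 h array. In the pentose phosphate pathway, which branches from glycolysis, only PGLS rose (0.36 ± 0.05) and TKT fell (-0.42 ± 0.08, call lost without either 0 h array, adjusted p up to 0.0697) among 13 genes. Higher calls came to 2 without 24 h replicate 2, and lower calls came to 0 without either 0 h array.

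The start of a gene can be read for the letters HIF binds. A window from 250 bases before to 50 bases after the RefSeq start (GRCh38.p14) was at hand for 9547 of the 11963 genes, and ACGTG stood in it on either strand for 24.4% of all, 29.4% of the 839 higher genes with a window, 25.5% of the 926 lower ones, 40.9% of glycolysis genes, 43.8% of glycogen genes and 52.2% of direct HIF targets. Lists that fell or were near the background held it as often or more: 64.3% of ribosome biogenesis windows, 62.5% of those of the secretory pathway and 54.5% of those of metallothioneins and zinc transport. Stretches of 60 bases before the start of 5 genes that rose are shown because they hold these letters in 3 of the groups described. Letters run 5′ to 3′ on the gene's own strand, and capitals mark ACGTG or its reverse complement CACGT.
PGK1 (chrX:78104018-78104077, plus strand): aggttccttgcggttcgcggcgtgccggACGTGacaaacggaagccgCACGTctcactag
ENO2 (chr12:6914434-6914493, plus strand): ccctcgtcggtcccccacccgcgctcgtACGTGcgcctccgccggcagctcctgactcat
PPP1R3C (chr10:91633197-91633256, minus strand): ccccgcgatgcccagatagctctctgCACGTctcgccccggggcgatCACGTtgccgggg
GBE1 (chr3:81761726-81761785, minus strand): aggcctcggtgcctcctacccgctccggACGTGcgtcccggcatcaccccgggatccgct
P4HA1 (chr10:73096921-73096980, minus strand): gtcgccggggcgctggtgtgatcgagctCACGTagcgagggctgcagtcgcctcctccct
The stretches of PGK1 and PPP1R3C hold 2 matches each and the others 1. A match is a description of the letters, and no binding was measured.

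Genes of the tricarboxylic acid cycle were called lower more often than higher, while those of pyruvate dehydrogenase and its kinases went both ways. Pyruvate enters the mitochondrion through pyruvate dehydrogenase, which PDK kinases switch off. PDK1 was at 6.18 and 6.06 at 0 h and 8.54 and 8.54 at 24 h (2.42 ± 0.07 SE, 5.37-fold, adjusted p = 1.62e-06). PDK3 rose by 0.72 ± 0.07 SE. The enzyme's own subunit genes PDHA1 (-0.21) and PDHB (-0.03) were not called. Of the 14 measured genes of the enzyme and its kinases, 2 rose and 1, for another subunit, fell (call lost without either 0 h array or 24 h replicate 2). In the tricarboxylic acid cycle 4 of 18 genes fell and 1 rose. OGDH, the oxoglutarate dehydrogenase, was at 8.40 and 8.37 at 0 h and 7.66 and 7.70 at 24 h (-0.70 ± 0.06 SE, adjusted p = 0.000436), and IDH3A, of the NAD-dependent isocitrate dehydrogenase, fell to 8.96 and 9.07 from 9.53 and 9.51 (-0.50 ± 0.08 SE). The NADP-dependent isoenzyme gene IDH2 rose by 0.44 ± 0.07 SE. Both 0 h arrays lay above both 24 h arrays for OGDH and IDH3A and below them for IDH2. Lower calls numbered 2 without either 0 h array or 24 h replicate 1.

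The respiratory chain itself moved little. Complex I is the entry point for electrons from NADH. Its list, which also holds an assembly factor and other genes not named as its subunits, had 7 of 29 genes lower. In that list 0 were higher (3 at an unadjusted p under 0.05), and the median was -0.08. Over the 27 measured subunit genes, taken by symbol, the median was -0.01, as for all genes. The core subunit NDUFS1 was at 9.93 and 9.94 at 0 h and 9.60 and 9.64 at 24 h (-0.32 ± 0.05, call lost without either 0 h array, adjusted p up to 0.0618), and the 24 h arrays of NDUFB2 lay below those of 0 h by a similar amount (-0.33 ± 0.06, call lost without either 0 h array, adjusted p up to 0.0731). Calls in the lower direction were 0 without either 0 h array and 4 without 24 h replicate 1. Complexes II to V together had 3 of 33 genes lower and 2 higher, shares at or under those of all genes. ATP5MC1, a gene for the membrane ring of ATP synthase, was at -0.40 (call lost without either 0 h array, adjusted p up to 0.0657), whereas ATP5MC2, a second gene for the same ring protein, was at 0.27 (call lost without either 0 h array, either 6 h array or 24 h replicate 2, adjusted p up to 0.18). Members called higher numbered 0 without either 0 h array, either 6 h array or 24 h replicate 2, and 1 without 24 h replicate 1, and those called lower 0 without either 0 h array, and 1 without either 12 h array or 24 h replicate 1.

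Genes of the mitochondrial ribosome were called lower, while those of import and folding went both ways. The mitochondrial ribosome translates the few proteins encoded by mitochondrial DNA, and 15 of 42 of its measured genes fell while 0 rose (1 at an unadjusted p under 0.05), with a median of -0.15. MRPL35 was at 9.91 and 9.99 at 0 h and 9.54 and 9.48 at 24 h (-0.44 ± 0.06 SE, adjusted p = 0.00356), MRPL46 fell by 0.42 and MRPL9 by 0.35. The number of lower calls was 5 without 0 h replicate 1 and 3 without 0 h replicate 2. Over all measured genes with MRPL symbols, the large subunit, 15 of 31 fell, against 4 of 20 with MRPS symbols, a difference that was not tested. The MRPL lower count became 6 without 0 h replicate 1 and 4 without 0 h replicate 2. The MRPS higher count became 0 without either 0 h array, either 12 h array or either 24 h array, and the lower count 0 without either 0 h array.

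Proteins made in the cytosol enter mitochondria through the TOM and TIM translocases and are folded and pruned inside. Of 25 genes for this 6 fell and 4 rose. TIMM44, which tethers the import motor, was at 8.83 and 8.72 at 0 h and 8.23 and 8.30 at 24 h (-0.51 ± 0.07 SE), and the import chaperone TIMM10 (-0.43 ± 0.07), the matrix chaperone HSPA9 (-0.36 ± 0.05) and the channel subunit TIMM17A (-0.35 ± 0.05) also fell. The protease gene LONP1, which removes damaged and surplus matrix proteins, went up instead, from 8.68 and 8.65 to 9.13 and 9.35 (0.58 ± 0.08 SE, adjusted p = 0.00276). The partner chaperonins HSPD1 (-0.15) and HSPE1 (-0.07) were not called. This higher count moved to 1 without either 0 h array, either 6 h array or either 24 h array, and 2 without either 12 h array. Of 28 genes that clear mitochondria and other cargo, 4 rose, with the receptors BNIP3 (3.31 ± 0.07 SE) and BNIP3L (1.52 ± 0.08 SE) far ahead, and 3 fell, among them the cargo adaptor gene SQSTM1 (-0.51 ± 0.06). Of lower calls there were 1 without either 0 h array.

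The proteasome had the largest share of lower calls among the lists described. It is a barrel of alpha and beta subunits that digests ubiquitin-tagged proteins, capped by a regulatory particle that recognises and unfolds them. Of 37 measured genes 23 fell and 1 rose, with a median of -0.26. The cap gene PSMD3 was at 9.53 and 9.49 at 0 h and 8.78 and 8.93 at 24 h (-0.66 ± 0.06 SE, 1.58-fold lower, adjusted p = 0.000637). PSMD11, needed to assemble cap and core, had a mean of 11.67 at 0 h and 11.08 at 24 h (-0.59 ± 0.07 SE), with a second probe set at 0.08 and not called, and the ATPase PSMC1 fell to 10.78 and 10.80 from 11.21 and 11.27 (-0.45 ± 0.05 SE). For these genes the highest 24 h array lay below the lowest 0 h array. PSMD1 (-0.48 ± 0.06) and the catalytic beta subunit PSMB6 (-0.47 ± 0.07) fell as well. The activator PSME1, part of a cap used when peptides are made for display to immune cells, rose (0.48 ± 0.06 SE). Lower calls came to 11 without 0 h replicate 1 and 13 without 0 h replicate 2.

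The falls were spread over the whole particle. By symbol, 4 of 6 alpha, 5 of 10 beta, 5 of 5 ATPase and 8 of 12 non-ATPase cap genes fell and 0 in these 4 families rose (limma; also 0 at an unadjusted p under 0.05). Their medians were -0.25, -0.17, -0.38 and -0.32. The alpha lower count became 2 without either 0 h array. The beta lower count became 1 without either 0 h array, and 3 without either 6 h array or 24 h replicate 1. The ATPase lower count became 2 without either 0 h array and 3 without 24 h replicate 1. The non-ATPase lower count became 4 without 0 h replicate 1.

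Chaperones, which fold new or damaged proteins, also stood lower. Of 29 cytosolic chaperone and heat shock genes 13 fell and 1 rose, with a median of -0.19. HSPB8, a small heat shock protein that hands misfolded proteins to autophagy, was at 8.38 and 8.52 at 0 h and 7.10 and 6.97 at 24 h (-1.42 ± 0.11 SE, 2.67-fold lower, adjusted p = 0.000269). By brightest probe sets, no other called member fell by more than 0.37, the change of HSPH1 (call lost without 0 h replicate 2). A second HSPH1 probe set was called lower at -0.76. HSPA4 was called lower at -0.36 (call lost without 0 h replicate 1 or 24 h replicate 1, adjusted p up to 0.0869) by its brightest probe set and called higher by another at 0.37. The abundant HSP90AA1 (-0.11), CCT4 (-0.10) and CCT8 (-0.03) were not called. HSPB3, a small heat shock protein of muscle, was the member that stood higher (0.40 ± 0.08, call lost without either 0 h array or 24 h replicate 2, adjusted p up to 0.0968). Counts of higher calls moved to 0 without either 0 h array or 24 h replicate 2, and of lower calls to 2 without either 0 h array and 3 without 24 h replicate 1.

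**Figure D3:**
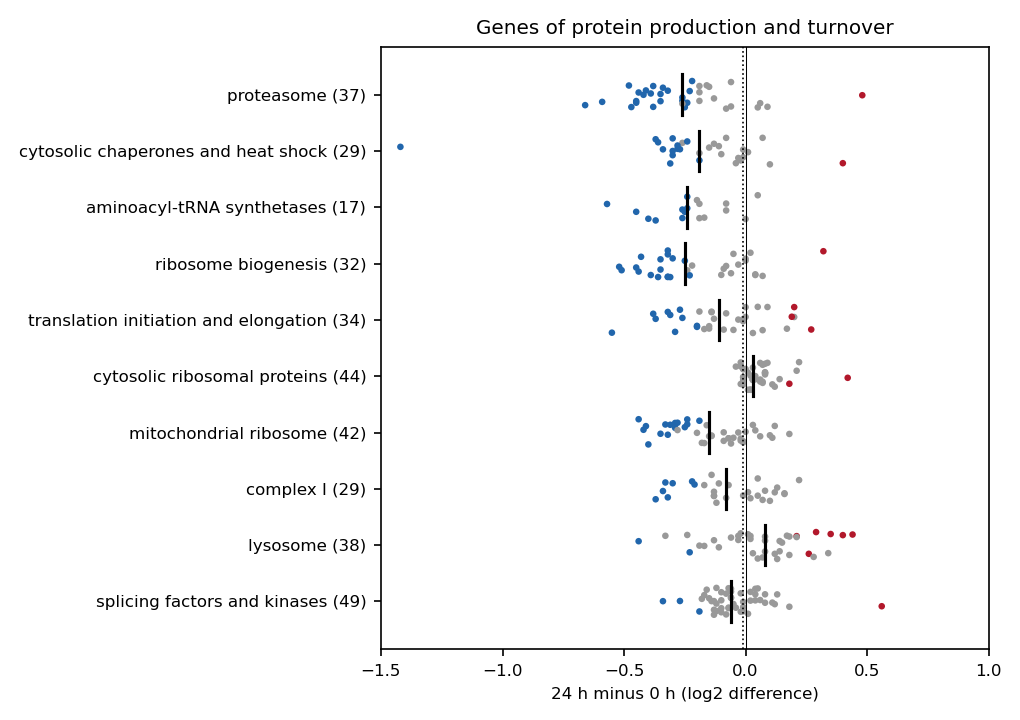
Each point is a member of the list named at the left (number measured in brackets), placed by its log2 difference, 24 h minus 0 h, with red for called higher, blue for called lower and grey for not called; the black bar is the list's median and the dotted line the median of all genes, -0.01. The points of the proteasome (median -0.26), ribosome biogenesis (-0.25) and aminoacyl-tRNA synthetases (-0.24) lie mostly left of 0, while cytosolic ribosomal proteins (0.03) crowd around it.

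Genes that guard against oxidants included some of the largest falls. NRF2 is the transcription factor that answers oxidative and electrophilic stress, through elements with the letters TGACNNNGC, and it drives the synthesis and use of the antioxidant glutathione. Of 27 measured targets 8 fell and 2 rose, with a median of -0.08. The quinone reductase gene NQO1 was at 9.77 and 9.64 at 0 h and 8.02 and 7.85 at 24 h (-1.77 ± 0.08 SE, 3.41-fold lower, adjusted p = 1.2e-05), the largest fall of any gene called. GCLM, of the enzyme that limits glutathione synthesis, was at 8.67 and 8.74 at 0 h and 7.40 and 7.39 at 24 h (-1.31 ± 0.07 SE, 2.48-fold lower). HMOX1, which breaks down heme, was at 8.40 and 8.37 at 0 h and 7.59 and 7.60 at 24 h (-0.79 ± 0.06 SE). In each, the 2 arrays of 24 h lay far below the 2 of 0 h. The cystine transporter SLC7A11 fell by 0.62 ± 0.09 SE and the glutathione transferase GSTM3 rose by 0.56 ± 0.06 SE. The factor itself, NFE2L2, was not called (-0.15, adjusted p = 0.184), nor was the ferritin gene FTL (-0.17). Lower members numbered 5 without 0 h replicate 1.

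The letters TGACNNNGC stood in the start windows of 14.9% of all genes, 13.5% of the higher and 13.7% of the lower ones. They stood in 40.0% of 20 windows of the NRF2 list, 34.4% of 32 proteasome windows and 42.3% of the lysosome windows, the last a list with more rises than falls. Stretches before the start of 4 lowered genes are shown because both of these lowered lists hold the letters more often than all genes, which was not tested. Capitals mark the match on either strand, with letters 5′ to 3′ on the gene's own strand (GRCh38.p14).
GCLM (chr1:93909431-93909490, minus strand): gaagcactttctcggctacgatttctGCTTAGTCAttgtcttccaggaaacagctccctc
TXNRD1 (chr12:104215654-104215713, plus strand): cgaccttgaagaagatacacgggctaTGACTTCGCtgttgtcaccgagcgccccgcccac
PSMD3 (chr17:39980744-39980803, plus strand): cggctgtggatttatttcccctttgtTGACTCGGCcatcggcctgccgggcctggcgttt
PSMD12 (chr17:67366709-67366768, minus strand): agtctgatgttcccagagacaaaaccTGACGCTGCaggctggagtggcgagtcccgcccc
TXNRD1, the thioredoxin reductase, was at 10.00 and 9.89 at 0 h and 9.47 and 9.44 at 24 h (-0.49 ± 0.06), and PSMD12, a cap subunit, had a mean of 11.41 at 0 h and 10.99 at 24 h (-0.42 ± 0.05). GCLM and PSMD3 fell by larger amounts, -1.31 and -0.66.

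Enzymes that remove peroxides and superoxide divided evenly, 5 higher and 5 lower of 22. The secreted glutathione peroxidase gene GPX3 was at 6.86 and 6.95 at 0 h and 5.89 and 5.62 at 24 h (-1.15 ± 0.13 SE, 2.22-fold lower, adjusted p = 0.00137). SELENOW, a small selenoprotein of muscle, went from 9.12 and 9.06 to 9.62 and 9.73 (0.59 ± 0.06 SE), and PRDX4, the peroxiredoxin of the secretory pathway, was at 0.35 (call lost without 0 h replicate 1, adjusted p up to 0.0564). Mitochondrial PRDX3 (-0.10) and PRDX6 (0.04) were not called. Higher members numbered 1 without 0 h replicate 1, 2 without 0 h replicate 2 and 3 without 24 h replicate 2, and lower members 1 without 0 h replicate 1 and 2 without 0 h replicate 2.

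Genes of amino acid supply and their regulator were called lower. ATF4 is the transcription factor that cells raise when amino acids run short or unfolded proteins gather in the endoplasmic reticulum. ATF4 itself was at 11.15 and 11.18 at 0 h and 10.33 and 10.46 at 24 h (-0.77 ± 0.06 SE, adjusted p = 0.000269), and both 24 h arrays lay below both 0 h arrays. Its dimer partner CEBPG fell by 0.85 ± 0.08 SE and its relative ATF5 by 0.76 ± 0.06 SE. Among its targets, asparagine synthetase, ASNS, was at 9.15 and 9.19 at 0 h and 8.06 and 8.18 at 24 h (-1.05 ± 0.06 SE, 2.07-fold lower, adjusted p = 5.23e-05). The pseudokinase gene TRIB3 was at 8.47 and 8.42 at 0 h and 7.54 and 7.57 at 24 h (-0.89 ± 0.06 SE) and the stress factor DDIT3 at 10.03 and 10.12 at 0 h and 9.38 and 9.49 at 24 h (-0.64 ± 0.07 SE). These targets were named because their changes were among the largest of the list's called members, and whether targets follow ATF4 was not tested. In all 10 of 24 genes fell and 2 rose, with a median of -0.12, and the lower count was 9 or 10 without any single array. Its higher count moved to 0 without either 0 h array, and 1 without either 6 h array or 24 h replicate 2. The chaperones of the unfolded protein response, HSPA5 (-0.08), CALR (-0.08) and CANX (-0.11), were not called.

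Of 26 genes of amino acid synthesis and transport 8 fell and 2 rose. The neutral amino acid transporter SLC38A1 was at 11.45 and 11.45 at 0 h and 11.12 and 11.09 at 24 h (-0.35 ± 0.05 SE). BCAT1, which starts the breakdown of branched-chain amino acids, rose from 9.68 and 9.61 to 10.28 and 10.34 (0.67 ± 0.06 SE), and CBS, of the route from homocysteine to cysteine, rose by 0.33 ± 0.05 SE. The serine and folate enzymes SHMT2 (-0.10) and MTHFD2 (-0.19) were not called. Members called lower numbered 3 without either 0 h array and 5 without 24 h replicate 1.

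Aminoacyl-tRNA synthetases charge transfer RNAs with amino acids for translation, and 9 of 17 genes of the cytosolic enzymes and their scaffold fell while 0 rose (limma; 0 at an unadjusted p under 0.05), with a median of -0.24. The tyrosine enzyme YARS1 was at 10.39 and 10.39 at 0 h and 9.72 and 9.91 at 24 h (-0.57 ± 0.07 SE, adjusted p = 0.00208). The glycine enzyme GARS1 was at 11.65 and 11.63 at 0 h and 11.17 and 11.20 at 24 h (-0.45 ± 0.06 SE), and AIMP1, a scaffold of the multi-enzyme complex, fell by 0.37 ± 0.06 SE. The mitochondrial enzymes, a separate set of genes, had 0 of 10 called in either direction (limma; 2 higher and 2 lower at an unadjusted p under 0.05), with a median of -0.05. In the list lower calls came to 3 without either 0 h array and 5 without 24 h replicate 1.

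Genes that make ribosomes were called lower, while few ribosomal protein genes were called. Ribosome biogenesis takes place in the nucleolus, where ribosomal RNA is cut, modified and folded, and 17 of its 32 measured genes fell while 1 rose, with a median of -0.25. The helicase DDX21 was at 11.26 and 11.31 at 0 h and 10.78 and 10.75 at 24 h (-0.51 ± 0.05 SE, adjusted p = 0.000908). UTP20, of the small subunit processome, was at 9.21 and 9.09 at 0 h and 8.64 and 8.63 at 24 h (-0.52 ± 0.06 SE). NOP16 (-0.45 ± 0.07), the U3-binding protein gene RRP9 (-0.43 ± 0.06) and PNO1 (-0.39 ± 0.05) also fell, each with both 24 h arrays below both 0 h arrays. The most abundant nucleolar proteins, NPM1 (-0.05), NCL (0.00) and NOLC1 (-0.08), were not called by their brightest probe sets, although both other probe sets of NOLC1 were called lower at -0.42 and -0.48, and fibrillarin, FBL, stood higher (0.32 ± 0.06, call lost without either 0 h array, adjusted p up to 0.068). Both counts moved, the higher to 0 without either 0 h array, and the lower to 5 without either 0 h array and 10 without 24 h replicate 1.

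The protein parts of the cytosolic ribosome stayed near 0 change. Of 44 genes 2 rose and 0 fell (limma; 5 and 0 at an unadjusted p under 0.05), with a median of 0.03, and RPS14 (0.08), RPS18 (-0.01) and RPS23 (0.03) were not called. The higher count became 1 without 0 h replicate 1, either 6 h array, either 12 h array or 24 h replicate 2, and 0 without 0 h replicate 2. Translation factors lay between: 10 of 34 fell and 3 rose, with a median of -0.11. EIF5, which triggers the joining of ribosomal subunits at the start codon, was at 12.85 and 12.85 at 0 h and 12.28 and 12.31 at 24 h (-0.55 ± 0.05 SE, adjusted p = 0.000524), among the most abundant transcripts that fell. EEF1A1 (-0.01), EIF1 (-0.14) and EIF4G2 (-0.15) were not called by their brightest probe sets, but 3 of 5 other EIF1 probe sets were called lower (-0.30, -0.29 and -0.31, with -0.04 and -0.33 not called). By symbol, 4 of 5 genes of eIF2B, the exchange factor that stress kinases inhibit, fell. The eIF2B lower count became 0 without either 0 h array, 2 without either 6 h array or 24 h replicate 2, and 1 without 24 h replicate 1. The eIF3 subunits divided, 3 higher and 2 lower of 12. The eIF3 higher count became 0 without 0 h replicate 1 and 1 without 0 h replicate 2, and the lower count 0 without either 0 h array, and 1 without either 6 h array, either 12 h array or either 24 h array. Over the whole list of translation factors the counts also moved. Higher calls came to 0 without either 0 h array, and 1 without either 6 h array, either 12 h array or 24 h replicate 2, and lower calls came to 1 without either 0 h array, and 6 without either 6 h array or 24 h replicate 1.

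Genes of the contractile apparatus were called higher more often than lower. Muscle contracts when calcium binds troponin on the thin filament and lets myosin pull. Of 38 sarcomere genes 14 rose and 1 fell, with a median of 0.19. TNNI2, the inhibitory troponin of fast fibres, was at 6.43 and 6.42 at 0 h and 7.63 and 7.68 at 24 h (1.23 ± 0.06 SE, 2.34-fold, adjusted p = 2.54e-05). TNNC1, the calcium-binding troponin of slow fibres, was at 6.70 and 6.55 at 0 h and 7.80 and 7.79 at 24 h (1.17 ± 0.08 SE). CSRP3, a protein of the Z-disc, was at 6.49 and 6.40 at 0 h and 7.68 and 7.43 at 24 h (1.12 ± 0.09 SE). No array of 24 h overlapped one of 0 h in these genes. The slow TNNI1, already abundant, rose by 0.84 ± 0.08 SE, the fast light chain MYL11 by 0.65 ± 0.08 SE and fast TNNC2 by 0.75 ± 0.11 SE. The abundant members TNNT1 (0.11), TPM2 (0.12) and MYL6B (0.13) were not called. Lower calls numbered 0 without either 0 h array, either 6 h array or 24 h replicate 1, and 2 without either 12 h array. Fibroblast markers, measured beside these muscle genes, had 0 of 11 called (limma; 4 higher and 0 lower at an unadjusted p under 0.05), and their summed log2 levels were 70.4 and 69.9 at 0 h and 71.1 and 70.9 at 24 h. The 12 muscle lineage markers had 5 higher and 2 lower. The lower ones include ACTC1, the brightest marker (-0.20, limma adjusted p = 0.0345, call lost without either 0 h, 6 h or 24 h array). The higher ones include MYOG (0.31, limma adjusted p = 0.0166, call lost without either 0 h array or 24 h replicate 2). Members called higher numbered 3 without 0 h replicate 2 or 24 h replicate 2, and those called lower 0 without either 0 h array or 24 h replicate 1, and 1 without either 6 h array.

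Other muscle genes followed in part. Of 26 genes for muscle energy and membrane 7 rose and 2 fell. Myoglobin, MB, which stores and carries oxygen in muscle, was at 7.79 and 7.81 at 0 h and 9.24 and 9.48 at 24 h (1.56 ± 0.08 SE, 2.94-fold, adjusted p = 2.78e-05). The brain-type creatine kinase gene CKB rose by 0.62 ± 0.06 SE and the muscle enolase ENO3 by 0.62 ± 0.07 SE. Both also belong to sugar and energy metabolism. Dystrophin, DMD (-0.16), and KLHL41 (0.23) were not called. Calls in the lower direction were 1 without 0 h replicate 1 or 24 h replicate 1, and 0 without 0 h replicate 2. Genes of excitation and calcium release had 3 higher and 3 lower of 28, near the shares of all genes, with the calcium store protein HRC at 0.61 ± 0.09. Counts of higher calls moved to 1 without 0 h replicate 1, and of lower calls to 0 without either 0 h array, and 1 without either 6 h array, either 12 h array or 24 h replicate 1.

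**Figure D4:**
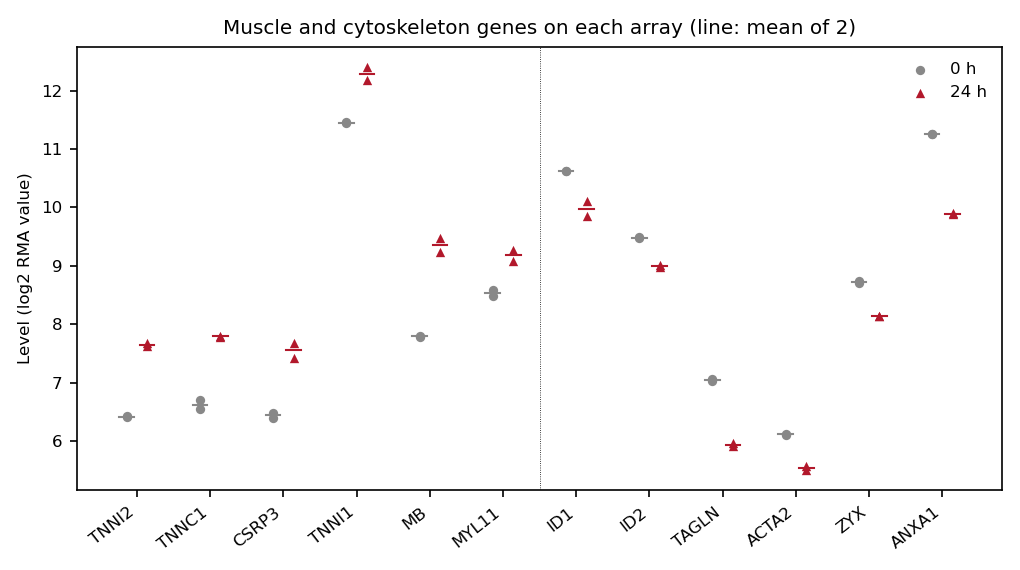
Each point is 1 array (circles 0 h, triangles 24 h) and each short line the mean of 2, on the log2 RMA scale, for 6 muscle genes left of the dotted line and 6 ID, actin-related and annexin genes right of it. In every gene shown the 2 times do not overlap, as in all called genes, with 24 h above in the muscle genes and below in the others.

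Among regulators of the muscle programme more fell than rose, 9 against 6 of 26. ID proteins hold back MYOD1 and its relatives by tying up their partners, and all 4 genes, ID1 to ID4, were called lower. ID1 was at 10.62 and 10.63 at 0 h and 9.85 and 10.11 at 24 h (-0.65 ± 0.08 SE, adjusted p = 0.00231) and ID2 at 9.47 and 9.49 at 0 h and 9.01 and 8.99 at 24 h (-0.48 ± 0.05 SE). ID4 was at -0.45 (call lost without 0 h replicate 2 or either 24 h array, adjusted p up to 0.131), and ID3 at -0.24 (call lost without either 0 h array, either 6 h array, either 12 h array or 24 h replicate 1, adjusted p up to 0.193). MYOD1 itself (-0.14, adjusted p = 0.159) and its partners TCF3 (-0.18) and TCF12 (0.03) were not called. Myostatin, MSTN, which restrains muscle growth, was at -0.45 (call lost without 0 h replicate 2, adjusted p up to 0.0721). NCAM1, an adhesion molecule of regenerating muscle, rose by 0.52 ± 0.07 SE, and TWIST1, a factor of early mesoderm, by 0.61 ± 0.08 SE. Higher members numbered 2 without 0 h replicate 1 and 3 without 0 h replicate 2, and lower members 4 without 0 h replicate 1, 2 without 0 h replicate 2 and 3 without 24 h replicate 1.

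Genes associated with the PAX3-FOXO1 fusion stood higher, 13 of 27, and 0 fell (limma; 3 at an unadjusted p under 0.05), with a median of 0.21. The oxidase gene PIPOX was at 9.60 and 9.55 at 0 h and 10.76 and 10.75 at 24 h (1.18 ± 0.06 SE, 2.26-fold, adjusted p = 1.64e-05). The receptor tyrosine kinase ALK was at 9.83 and 9.75 at 0 h and 10.82 and 10.70 at 24 h (0.97 ± 0.06 SE) and the platelet-derived growth factor receptor PDGFRA at 7.59 and 7.65 at 0 h and 8.65 and 8.49 at 24 h (0.95 ± 0.07 SE). All 3 had both 24 h arrays above both 0 h arrays. NELL1 (0.71 ± 0.06), the receptor FGFR2 (0.62 ± 0.07) and the microtubule protein DCX (0.59 ± 0.06) also rose. For PDGFRA both other probe sets, at 0.25 and 0.16, were not called. POU4F1 (0.06), MYOD1 (-0.14) and HMGA2 (-0.22, limma adjusted p = 0.0521) were not called. Of the 27 members 19 lay above 0 and 8 below. The number of lower calls was 2 without 24 h replicate 1. The list is drawn from what is generally known of such tumours, and the fusion transcript was not measured as such.

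Genes of actin and of its partners in smooth muscle and stress fibres were called lower more often than higher. Of 44 genes 13 fell and 3 rose, with a median of -0.09. Transgelin, TAGLN, which cross-links actin, was at 7.04 and 7.06 at 0 h and 5.97 and 5.92 at 24 h (-1.10 ± 0.07 SE, 2.15-fold lower, adjusted p = 8.79e-05). Smooth muscle actin, ACTA2, was at 6.13 and 6.11 at 0 h and 5.51 and 5.58 at 24 h (-0.58 ± 0.08 SE). Zyxin, ZYX, a focal adhesion protein, was at 8.75 and 8.70 at 0 h and 8.15 and 8.14 at 24 h (-0.58 ± 0.06 SE). All 3 were below their 0 h arrays in both 24 h arrays. TPM4 fell by 0.47 ± 0.07 SE, and beta-actin, ACTB, among the brightest genes on the array, went from 13.63 and 13.67 to 13.24 and 13.29 (-0.38 ± 0.05 SE). Gelsolin, GSN, which severs actin filaments, rose by 0.66 ± 0.07 SE. CFL1 (-0.12) and TMSB4X (-0.04) were not called. This lower count moved to 6 without 0 h replicate 1 and 7 without 0 h replicate 2.

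Annexins bind membranes in the presence of calcium. ANXA1 was at 11.26 and 11.26 at 0 h and 9.89 and 9.90 at 24 h (-1.36 ± 0.06 SE, 2.57-fold lower, adjusted p = 1.12e-05), and ANXA7 at 10.62 and 10.62 at 0 h and 10.11 and 10.06 at 24 h (-0.53 ± 0.06 SE). ANXA2 was at -0.34 (call lost without either 0 h array, adjusted p up to 0.0596), while S100A10, whose protein binds that of ANXA2, rose by 0.50 ± 0.06 SE. ANXA5 (-0.08) and ANXA6 (0.00) were not called. In all 4 of 23 annexin and S100 genes fell and 1 rose. Both counts moved, the higher to 2 without 24 h replicate 1, and the lower to 2 without 0 h replicate 2. Microtubule genes divided, 7 higher and 6 lower of 40. The stabilising proteins MAP1A (-1.07 ± 0.07 SE, though its 2 other probe sets, at -0.08 and -0.09, were not called) and MAP1B (-0.68 ± 0.06 SE) and the kinesin motor KIF3A (-0.58 ± 0.08) fell, while DPYSL2, which helps tubulin assemble in growing axons, rose from 10.57 and 10.59 to 11.49 and 11.41 (0.87 ± 0.06 SE). The abundant tubulins TUBA1B (-0.03) and TUBB (-0.12) were not called. Higher calls came to 4 without 0 h replicate 2, and lower calls came to 3 without 0 h replicate 2.

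Genes of collagen and its processing were called higher more often than lower. Collagen chains are hydroxylated on proline and lysine inside the cell and cross-linked outside it. Of 20 enzyme and chaperone genes 9 rose and 2 fell, with a median of 0.17. The lysyl hydroxylase PLOD2 was at 9.73 and 9.80 at 0 h and 11.54 and 11.35 at 24 h (1.67 ± 0.08 SE, 3.19-fold, adjusted p = 2.01e-05). The prolyl hydroxylase subunit P4HA1, whose start is shown above, was at 9.95 and 9.92 at 0 h and 11.60 and 11.44 at 24 h (1.58 ± 0.07 SE). LOX, which cross-links collagen and elastin, was at 8.64 and 8.76 at 0 h and 9.71 and 9.40 at 24 h (0.86 ± 0.10 SE). Each of these was higher on both 24 h arrays. PLOD1 (0.95 ± 0.10) and PCOLCE, an enhancer of collagen processing (0.63 ± 0.07), rose as well. The collagen chaperone SERPINH1 (-0.14) and P4HB (0.17) were not called. Of lower calls there were 1 without 0 h replicate 1, and 0 without 0 h replicate 2 or 24 h replicate 1.

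Of 26 collagen chains 6 rose and 0 fell (limma; 11 and 1 at an unadjusted p under 0.05). COL15A1, of the basement membrane zone, was at 7.26 and 7.28 at 0 h and 8.24 and 8.13 at 24 h (0.92 ± 0.12 SE), COL5A1, which nucleates fibrils, rose by 0.57 ± 0.06 SE, COL9A1 by 0.58 and COL14A1 by 0.52. The network collagens COL4A1 (0.09) and COL4A2 (0.17) were not called. Among 49 other matrix genes 10 rose and 5 fell. Matrilin MATN2 was at 8.18 and 8.25 at 0 h and 9.31 and 9.17 at 24 h (1.03 ± 0.07 SE) and the laminin chain LAMA4 at 6.92 and 6.84 at 0 h and 7.93 and 7.71 at 24 h (0.94 ± 0.09 SE). The matricellular signalling proteins CCN1 (-0.56 ± 0.06) and CCN2 (-0.39 ± 0.07, call lost without 0 h replicate 2, adjusted p up to 0.0663) were lower. Fibronectin, FN1 (0.15), and SPARC (0.08) were not called. Members called higher numbered 4 without 0 h replicate 1 and 2 without 0 h replicate 2, and those called lower 2 without 0 h replicate 1 or 24 h replicate 1, 1 without 0 h replicate 2, and 3 without either 6 h array or 24 h replicate 2. Matrix proteases and their inhibitors divided, 4 higher and 4 lower of 36: urokinase, PLAU, fell by 0.64 ± 0.06 SE and the protease inhibitor SERPINE2 rose by 0.45 ± 0.05 SE. Counts of higher calls moved to 1 without either 0 h array or either 6 h array, and 2 without 24 h replicate 2, and of lower calls to 1 without 0 h replicate 1 and 2 without 0 h replicate 2.

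Integrins, cadherins and tetraspanins join cells to matrix and to each other, and 9 of 42 rose while 4 fell. The beta chain ITGB2, best known from leukocytes, was at 7.75 and 7.67 at 0 h and 9.33 and 9.49 at 24 h (1.70 ± 0.08 SE, 3.25-fold, adjusted p = 1.3e-05). Leukocyte markers did not move with it: 0 of 5 were called (limma; 0 higher and 1 lower at an unadjusted p under 0.05), and PTPRC, which all leukocytes carry, lay at percentile 3.5. The tetraspanin CD9 was at 10.62 and 10.61 at 0 h and 11.57 and 11.63 at 24 h (0.99 ± 0.05 SE) and the fibronectin receptor chain ITGA5 rose by 0.58 ± 0.05 SE. MCAM, an adhesion molecule of the immunoglobulin family, fell by 0.62 ± 0.06 SE. ITGB1 (-0.02) and ITGAV (-0.03) were not called. Higher members numbered 5 without 0 h replicate 2, and lower members 1 without 0 h replicate 1 and 2 without 0 h replicate 2.

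Growth factor genes changed in a few members by large amounts. Among 28 angiogenic factors and receptors 7 rose and 3 fell. VEGFA, the main signal for new vessels, was at 8.32 and 8.56 at 0 h and 10.38 and 10.19 at 24 h (1.84 ± 0.09 SE), and the hormone gene STC1 at 5.53 and 5.18 at 0 h and 8.27 and 7.76 at 24 h (2.66 ± 0.17 SE, 6.34-fold). Its relative STC2 rose by 0.81 ± 0.05 SE, adrenomedullin, ADM, by 1.15 ± 0.07 SE and the chemokine receptor CXCR4 by 0.52 ± 0.06 SE. All the 24 h arrays of these genes lay above the 0 h arrays, and PDGFA (-0.06) and PDGFC (-0.07) were not called. Lower calls came to 1 without 0 h replicate 1 or 24 h replicate 1. In the insulin-like growth factor system 6 of 21 rose and 1 fell. The binding proteins IGFBP5, at 7.97 and 7.90 at 0 h and 10.16 and 10.22 at 24 h (2.25 ± 0.06 SE), and IGFBP2, at 9.01 and 8.95 at 0 h and 10.45 and 10.70 at 24 h (1.60 ± 0.08 SE), led. The insulin receptor gene INSR rose by 0.62 ± 0.05 SE, and PAPPA, a protease that frees the growth factors from binding proteins, fell by 0.46 ± 0.06 SE. Lower members numbered 2 without 24 h replicate 1.

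Of 35 fibroblast growth factors and receptor tyrosine kinases 7 rose and 4 fell. FGFR1 was at 7.68 and 7.77 at 0 h and 8.27 and 8.36 at 24 h (0.59 ± 0.06 SE). AXL, a receptor that promotes survival and movement, was at 11.19 and 11.25 at 0 h and 10.64 and 10.72 at 24 h (-0.54 ± 0.07 SE), while PROS1, the gene of one of its family's ligands, rose by 0.51 ± 0.08 SE. FGFR4 (0.11), MET (0.10) and ERBB3 (0.04) were not called. Both counts moved, the higher to 4 without either 0 h array or 24 h replicate 1, and the lower to 2 without either 0 h array, either 6 h array or 24 h replicate 2, and 1 without 24 h replicate 1.

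Rapid response, inflammatory and TGF-beta genes were called lower more often than higher. Of 43 immediate early and ERK feedback genes 12 fell and 5 rose. HBEGF, a ligand of the EGF receptor, was at 8.07 and 8.16 at 0 h and 7.23 and 7.13 at 24 h (-0.93 ± 0.07 SE, adjusted p = 0.000227), and the stress factor ATF3 fell by 0.52 ± 0.06 SE. BTG1, which slows proliferation, rose by 0.66 ± 0.08 SE. JUND (0.09), ZFP36L1 (0.00) and SPRY2 (0.01) were not called. Higher calls came to 3 without 0 h replicate 1 and 1 without 0 h replicate 2, and lower calls came to 7 without either 0 h array. Among 31 NF-kB targets and cytokines 10 fell and 2 rose. The cytokine IL11 was at 8.75 and 8.74 at 0 h and 7.97 and 7.88 at 24 h (-0.83 ± 0.07 SE), and the chemokines CXCL2 (-0.66 ± 0.10) and CXCL3 (-0.56 ± 0.06), both dim, fell. RELA, the main activating subunit, was not called (0.13). Members called higher numbered 0 without either 0 h array and 1 without 24 h replicate 1, and those called lower 5 without 0 h replicate 1, 4 without 0 h replicate 2 and 6 without 24 h replicate 1. Of 47 genes of TGF-beta, BMP and activin signalling 11 fell and 4 rose. INHBE, an activin subunit gene, was at 10.27 and 10.34 at 0 h and 9.66 and 9.65 at 24 h (-0.65 ± 0.05 SE), and ID1 and ID2, textbook BMP targets given above, are among the 11. INHA, of the inhibins, rose by 0.59 ± 0.07 SE. Counts of higher calls moved to 2 without either 0 h array, and of lower calls to 6 without 0 h replicate 1 and 4 without 0 h replicate 2.

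Among genes of lipid supply, the largest rises were in regulators and receptors. Of 19 genes of cholesterol synthesis and uptake 5 rose and 0 fell (limma; 9 and 0 at an unadjusted p under 0.05). INSIG2, which holds the sterol sensor in the endoplasmic reticulum and so restrains synthesis, was at 7.98 and 7.95 at 0 h and 10.04 and 10.00 at 24 h (2.05 ± 0.05 SE, 4.14-fold, adjusted p = 1.58e-06), and its relative INSIG1 at 8.60 and 8.51 at 0 h and 9.55 and 9.41 at 24 h (0.93 ± 0.07 SE). SREBF1, the transcription factor they restrain, rose by 0.72 ± 0.07 SE. The enzymes IDI1 (0.15), SQLE (0.08) and FDPS (0.23) were not called. Its higher count moved to 3 without 0 h replicate 1. The desaturase SCD rose by 0.58 ± 0.06 SE and the elongase ELOVL2 by 0.61 ± 0.08 SE among 12 genes of fatty acid synthesis, of which 2 rose in all and 1 fell. Members called lower numbered 0 without either 0 h array, either 6 h array or 24 h replicate 1.

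Lipid uptake and storage had 5 of 21 genes higher and 1 lower. The lipoprotein receptor VLDLR was at 6.60 and 6.76 at 0 h and 8.31 and 8.21 at 24 h (1.58 ± 0.07 SE). FABP7, a fatty acid carrier of brain and of muscle tumours, was at 8.97 and 8.92 at 0 h and 10.12 and 10.04 at 24 h (1.14 ± 0.06 SE), and HILPDA, which blocks the breakdown of stored fat, rose by 0.70 ± 0.07 SE. PLIN2 (0.14), the coat of lipid droplets, was not called. In the list lower calls came to 0 without either 0 h array or 24 h replicate 1. Of 38 lysosome genes 6 rose and 2 fell, with a median of 0.08. The protease genes CTSS (0.44 ± 0.07), CTSH (0.40 ± 0.05) and TPP1 (0.35 ± 0.05) rose, and the sialidase NEU1 fell by 0.44 ± 0.06 SE. All are modest changes, and PSAP (0.18) and CTSA (0.21) were not called. Higher members numbered 3 without 0 h replicate 1, and lower members 1 without either 0 h array or either 24 h array.

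Genes of DNA synthesis and mitosis were called higher more often than lower, by small amounts. Of 44 replication genes 9 rose and 1 fell. The helicase subunit MCM6 was at 10.82 and 10.84 at 0 h and 11.18 and 11.17 at 24 h (0.34 ± 0.05 SE) and the single-strand binding protein RPA1 at 10.87 and 10.79 at 0 h and 11.21 and 11.18 at 24 h (0.37 ± 0.06, call lost without 0 h replicate 2, adjusted p up to 0.0508). PCNA (0.03), MCM2 (0.00) and TOP2A (0.06) were not called. Both counts moved, the higher to 2 without 0 h replicate 1, 1 without 0 h replicate 2 and 5 without 24 h replicate 1, and the lower to 0 without either 0 h array, either 6 h array or 24 h replicate 2. Of 30 nucleotide synthesis genes 8 rose and 1 fell. The purine salvage gene HPRT1 was at 10.70 and 10.63 at 0 h and 11.30 and 11.18 at 24 h (0.58 ± 0.06 SE), thymidine kinase, TK1, rose by 0.45 ± 0.05 SE and AMPD2 by 0.41 ± 0.05 SE. Ribonucleotide reductase, RRM1 (0.12) and RRM2 (-0.05), was not called. Higher calls came to 3 without 0 h replicate 1, 4 without 0 h replicate 2, and 5 without either 6 h array or 24 h replicate 1, and lower calls came to 0 without either 0 h array and 2 without either 24 h array. In mitosis 8 of 51 rose and 1 fell, HMMR, of the spindle, leading with 0.50 ± 0.07 SE, while CDK1 (-0.04) and UBE2C (-0.10) were not called. Members called higher numbered 1 without 0 h replicate 1, 2 without 0 h replicate 2, 5 without 24 h replicate 1 and 3 without 24 h replicate 2, and those called lower 0 without either 0 h array, either 6 h array or 24 h replicate 1, and 3 without 24 h replicate 2.

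DNA repair divided, 6 higher and 5 lower of 45. DDB2, which recognises ultraviolet damage, was at 5.95 and 5.95 at 0 h and 6.64 and 6.68 at 24 h (0.71 ± 0.06 SE), and the recombination gene XRCC2 (0.61 ± 0.05), FANCI (0.50 ± 0.05) and BARD1 (0.45 ± 0.06) rose. NBN, a sensor of double-strand breaks, fell by 0.43 ± 0.07 SE. The lower count became 2 without 0 h replicate 1, either 6 h array or 24 h replicate 2, 1 without 0 h replicate 2, and 3 without 24 h replicate 1. Chromatin modifiers had 9 higher and 7 lower of 51. The rises were led by enzymes that themselves use oxygen: KDM3A was at 9.37 and 9.33 at 0 h and 10.76 and 10.66 at 24 h (1.36 ± 0.06 SE) and the DNA demethylase TET1 at 6.76 and 6.61 at 0 h and 8.11 and 7.76 at 24 h (1.25 ± 0.12 SE), with KDM4B (0.72 ± 0.06), KDM5B (0.63 ± 0.07) and KDM4C (0.56 ± 0.07) behind. EED (0.11, with another probe set called higher at 0.64), SUZ12 (-0.14) and ARID1A (0.09), of the polycomb and SWI/SNF complexes, were not called by their brightest probe sets. Lower calls numbered 0 without 0 h replicate 1, 1 without 0 h replicate 2 and 3 without 24 h replicate 1. Histone genes had 2 of 37 higher, H3-3A (0.62 ± 0.05) and H1-10 (0.45 ± 0.08, call lost without 0 h replicate 2, adjusted p up to 0.071), and 0 lower (limma; 0 at an unadjusted p under 0.05). Calls in the higher direction were 1 without 0 h replicate 2.

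Among the parts of the HIF pathway, the largest changes were in prolyl hydroxylase genes, whose enzymes restrain HIF. Of 18 HIF pathway components 3 rose and 2 fell. The prolyl hydroxylases mark HIF alpha subunits for destruction when oxygen is present: EGLN3 was at 7.23 and 7.44 at 0 h and 9.77 and 9.61 at 24 h (2.36 ± 0.09 SE) and EGLN1 at 8.08 and 8.14 at 0 h and 9.60 and 9.59 at 24 h (1.48 ± 0.06 SE). The ubiquitin ligase SIAH2, which targets some prolyl hydroxylases for breakdown, rose by 0.37 ± 0.06 SE. EPAS1, encoding HIF-2 alpha, was at -0.30 (call lost without either 0 h array or 24 h replicate 2, adjusted p up to 0.119), and the coactivator CREBBP at -0.31 (call lost without either 0 h array or either 24 h array, adjusted p up to 0.15). HIF1A (-0.11, adjusted p = 0.361), ARNT (0.12), ARNT2 (-0.06), HIF3A (0.20), VHL (0.19), HIF1AN (-0.01) and EP300 (-0.03) were not called. Nor were CITED2 (-0.04), CUL2 (0.02), RBX1 (0.10), ELOB (0.04), ELOC (-0.12) and SIAH1 (-0.06). Dimmer probe sets of ARNT, CITED2 and EP300 were called lower, at -0.34, -0.41 and -0.36. The number of lower calls was 0 without either 0 h array or 24 h replicate 2, and 1 without 24 h replicate 1.

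Among 29 genes around mTORC1, the kinase complex that couples nutrients to growth, 3 rose and 5 fell. Its inhibitor DDIT4 was at 8.55 and 8.66 at 0 h and 10.78 and 10.96 at 24 h (2.26 ± 0.07 SE), and RRAGA, a GTPase that brings the complex to lysosomes, at 10.18 and 10.12 at 0 h and 10.88 and 10.91 at 24 h (0.74 ± 0.06 SE). The kinase MTOR was lower (-0.38 ± 0.08, call lost without either 0 h array, adjusted p up to 0.0993), RHEB (-0.10) and AKT1 (-0.11) were not called. This lower count moved to 1 without either 0 h array. In the circadian clock 5 of 19 rose and 1 fell. The repressors BHLHE40, at 7.52 and 7.54 at 0 h and 9.32 and 9.35 at 24 h (1.80 ± 0.06 SE), and BHLHE41 (1.41 ± 0.06 SE) rose together with NFIL3 (0.85 ± 0.05), and NR1D2 fell by 0.67 ± 0.09 SE. Of higher calls there were 3 without either 0 h array. In the MYC network 4 of 13 genes rose and 0 fell (limma; 1 lower at an unadjusted p under 0.05). MXI1, which opposes MYC, was at 8.48 and 8.42 at 0 h and 10.06 and 10.04 at 24 h (1.59 ± 0.06 SE), and TXNIP, which limits glucose uptake, rose by 0.88 ± 0.05 SE. MYC itself was not called (-0.16). Higher calls came to 2 without either 0 h array. Of 38 p53 targets and cell death genes 4 rose and 4 fell. The pro-death gene PMAIP1 fell by 0.64 ± 0.05 SE, while APAF1 (0.73 ± 0.07) and CASP9 (0.50 ± 0.05), partners in the apoptosome, rose, although their other probe sets (0.16 and 0.17 for APAF1, 0.07 for CASP9) were not called. Lower members numbered 2 without 0 h replicate 2.

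Past the first 8 ranks in each direction, ranks 9 to 30 among rises ran from 2.14 to 1.45 and among falls from -1.05 to -0.76. Of these 22 rises 17 were in the lists above, and of the 22 falls 11. AK4, a mitochondrial adenylate kinase, headed the rises at 8.27 and 8.40 at 0 h and 10.50 and 10.45 at 24 h (2.14 ± 0.06 SE), followed outside the lists by BEND5 at 6.52 and 6.52 at 0 h and 8.43 and 8.36 at 24 h (1.88 ± 0.06 SE). PROM1, the surface protein CD133 that marks some stem cells, was at 9.63 and 9.55 at 0 h and 11.11 and 11.04 at 24 h (1.48 ± 0.06 SE). In all 3 the gap between times was far wider than that between replicates. FAM162A rose by 1.75 ± 0.07 SE, PNRC1 by 1.48 ± 0.07 SE and CABP1, a calcium-binding protein, by 1.45 ± 0.13 SE.

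Among falls outside the lists, SH3BGR was at 8.91 and 9.03 at 0 h and 7.95 and 7.92 at 24 h (-1.04 ± 0.06 SE). TNFRSF12A, the receptor for the cytokine TWEAK in muscle, was at 9.52 and 9.54 at 0 h and 8.62 and 8.71 at 24 h (-0.86 ± 0.06 SE), and UCP2, a carrier of the inner mitochondrial membrane, at 10.44 and 10.51 at 0 h and 9.65 and 9.76 at 24 h (-0.76 ± 0.06 SE). These 3 fell on both arrays by like amounts. TRIM16 (-0.88 ± 0.07), the membrane proteins EMP1 (-0.78 ± 0.06) and MYOF (-0.76 ± 0.06), the last a repair protein of muscle membranes, also fell. WDR5B was less certain (-0.78 ± 0.17, call lost without either 0 h array or 24 h replicate 1, adjusted p up to 0.107), as were STATH (-0.91 ± 0.19, call lost without 0 h replicate 2 or 24 h replicate 1, adjusted p up to 0.101) and NIBAN1 (-0.90 ± 0.16, call lost without either 0 h array or 24 h replicate 1, adjusted p up to 0.0642). NAP1L3 (-0.89 ± 0.10) and POMZP3 (-0.76 ± 0.08) complete these ranks outside the lists. Of those in lists, the Wnt antagonist SFRP4 (-0.93 ± 0.11) and the axon repellent SEMA3A (-0.80 ± 0.07) fell, and PIR, of the NRF2 list, was less certain (-0.81 ± 0.14, call lost without 0 h replicate 1 or 24 h replicate 1, adjusted p up to 0.0636).

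The most abundant transcripts changed less. Among the 15 brightest genes called higher were GAPDH, at 13.71 and 13.67 at 0 h and 13.95 and 14.04 at 24 h (0.30 ± 0.06, call lost without either 0 h array, adjusted p up to 0.0864), LDHA (0.66 ± 0.05), ENO1 (0.75 ± 0.06), ALDOA (0.78 ± 0.09) and PGK1, all of glycolysis, and the peroxidasin PXDN (0.38 ± 0.05). CTDSP2, also among them (0.21 ± 0.05, call lost without either 0 h array, either 6 h array or either 24 h array, adjusted p up to 0.16), had a second probe set at -0.32. The 15 brightest genes called lower included ACTB, EIF5 and ODC1, of polyamine synthesis, at 12.69 and 12.78 at 0 h and 12.18 and 12.27 at 24 h (-0.51 ± 0.06 SE). They also included the chaperone HSP90AB1 (-0.28 ± 0.07, call lost without either 0 h array or 24 h replicate 1, adjusted p up to 0.13) and the proteasome genes PSMA7 (-0.25 ± 0.05, call lost without either 0 h array or 24 h replicate 1, adjusted p up to 0.124) and PSMB1 (-0.24 ± 0.05, call lost without either 0 h array, adjusted p up to 0.113).

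The late state can also be set against the times before it, on the same 24 h arrays. Between 12 and 24 h few genes were called: 22 higher, or 0.184%, and 7 lower, or 0.0585%, together 0.242%. After median centring of the arrays there were 13 higher and 7 lower. Of the 22, 19 were also higher against 0 h. Myoglobin, MB, was at 8.17 and 8.23 at 6 h, 8.52 and 8.56 at 12 h and 9.24 and 9.48 at 24 h (24 h minus 12 h 0.82). The light chain MYL11 was at 8.59 and 8.48 at 0 h, 8.56 and 8.51 at 12 h and 9.09 and 9.28 at 24 h (0.65), and the Z-disc protein gene MYOZ2 was at 7.44 and 7.57 at 0 h, 7.75 and 7.71 at 12 h and 8.38 and 8.29 at 24 h (0.60). For MYL11 the 12 h arrays were level with 0 h, so that its rise lay after 12 h. IQGAP2, a scaffold of the actin skeleton, rose by 0.79, IGFBP5 by 0.71, TGFBI, a matrix protein, by 0.63, the secreted trefoil peptide gene TFF3 by 0.60 and SPAG4 by 0.83. NQO1 was at 9.21 and 9.22 at 6 h, 8.62 and 8.54 at 12 h and 8.02 and 7.85 at 24 h (-0.64). The others called lower had stood above 0 h at 12 h: ANKRD36B was at 8.34 and 8.27 at 0 h, 8.75 and 8.72 at 12 h and 8.18 and 8.11 at 24 h (-0.59), and RUNX1-IT1 (-0.59), GPRASP1 (-0.57), SPDYE2 (-0.55), CHST5 (-0.52) and REG1A (-0.43) were lower too. The 12 h arrays have a narrower spread of values than the others, with interquartile ranges of 3.83 and 3.77 against 3.91 to 3.97, and its part in these calls was not tested. The count of 29 became 0 without either 0 h array, either 6 h array, 12 h replicate 2 or either 24 h array, and 139 without 12 h replicate 1.

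Against 6 h, 221 genes were higher, or 1.85%, and 112 lower, or 0.936%, together 2.78%. Sarcomere genes account for 10 of the higher calls and glycolysis genes for 11. TNNI2 was at 6.78 and 6.65 at 6 h and 7.63 and 7.68 at 24 h (24 h minus 6 h 0.94), CSRP3 rose by 0.85, the complement inhibitor SERPING1 by 0.89 and MIF, a secreted cytokine, by 0.96. These 4 genes were still moving after 6 h. NQO1 (-1.28), GPX3 (-0.90), GCLM (-0.67), ANXA1 (-0.65) and TAGLN (-0.64) fell further. SERPING1 and MIF were chosen after their values were seen, as were ID3, PSMD12 and TXNRD1 above. The count of 333 became 123 without either 0 h array, 18 and 44 without 6 h replicate 1 or 2, and 66 and 59 without 24 h replicate 1 or 2.

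Whole lists took different courses, given side by side because the 3 comparisons share the 0 h arrays. Medians are listed in the order 6, 12 and 24 h against 0 h. Glycolysis genes were at 0.32, 0.63 and 0.77, and sarcomere genes at -0.02, 0.10 and 0.19. PAX3-FOXO1 associated genes were at 0.20, 0.20 and 0.21. The proteasome was at -0.15, -0.32 and -0.26 and ribosome biogenesis at -0.10, -0.26 and -0.25. Among these lists the sarcomere median alone was near 0 at 6 h, and those of the proteasome and ribosome biogenesis were lower on both 12 h arrays than on both 24 h arrays.

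**Figure D5:**
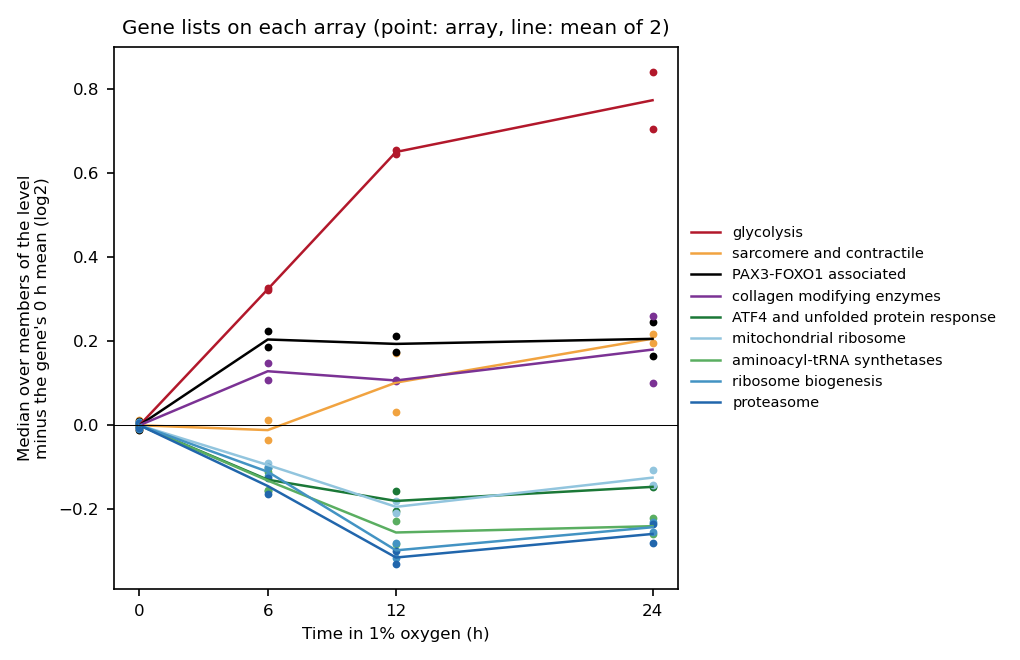
Each point is 1 array, placed at its time in 1% oxygen (x axis, h) and at the median over a list's members of the level minus the gene's 0 h mean (y axis, log2); lines join the means of 2 arrays. Glycolysis climbs to a median near 0.77 at 24 h, sarcomere genes are near 0 at 6 h, and the proteasome, ribosome biogenesis and aminoacyl-tRNA synthetases end between -0.24 and -0.26.

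Some functions showed called shares near those of all genes or below them. Splicing factors and kinases had 1 higher and 3 lower of 49, the secretory pathway 1 and 3 of 41, acid-base and ion transport 1 and 0 of 26 (limma; 3 lower at an unadjusted p under 0.05), and interferon response genes 4 and 2 of 39. Wnt signalling had 4 and 5 of 41, axon guidance 4 and 5 of 51, cyclic nucleotide signalling 4 and 3 of 44, and cyclins with their inhibitors 3 and 1 of 33. Single genes still moved in them: CLK3, a kinase of splicing factors, rose by 0.56 ± 0.08 SE, SSR3, of the translocon of the endoplasmic reticulum, from 8.35 and 8.35 to 9.12 and 9.22 (0.82 ± 0.08 SE), the membrane protein IFITM1 by 0.80 ± 0.10 SE and cyclin G2, CCNG2, by 0.66 ± 0.06 SE. The cyclic AMP repressor CREM fell by 0.57 ± 0.06 SE. The splicing lower count became 0 without either 0 h array or 24 h replicate 2, and 1 without 24 h replicate 1. The secretory pathway higher count became 2 without either 24 h array, and the lower count 1 without 0 h replicate 2 and 5 without 24 h replicate 2. The acid-base higher count became 0 without either 0 h array or 24 h replicate 2. The interferon higher count became 2 without 0 h replicate 2 or 24 h replicate 2, and the lower count 0 without either 0 h array, and 1 without either 6 h array or either 24 h array. The Wnt higher count became 0 without 0 h replicate 1 and 1 without 0 h replicate 2, and the lower count 1 without either 0 h array, and 3 without either 6 h array or either 24 h array. The axon guidance higher count became 2 without 0 h replicate 1 or 24 h replicate 1, and 1 without 0 h replicate 2, and the lower count 1 without either 0 h array, 3 without either 6 h array or 24 h replicate 2, and 2 without 24 h replicate 1. The cyclic nucleotide higher count became 0 without 0 h replicate 1, 2 without 0 h replicate 2 or either 6 h array, and 1 without 24 h replicate 1, and the lower count 1 without 0 h replicate 2, and 5 without either 12 h array or 24 h replicate 2. The cyclin higher count became 1 without either 0 h array, and the lower count 2 without 24 h replicate 2. In hexosamine supply 0 of 12 genes were called (limma; 2 higher and 0 lower at an unadjusted p under 0.05).

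Genes are given by their brightest probe set, and many have others on the array. Of 108 genes named here as called that have other probe sets, 74 had at least 1 other called in the same direction, 3 had 1 called in the opposite direction and 32 had no other called. Other probe sets of called genes with none of them called include, beside those given above, FAM162A (0.59), NIBAN1 (-0.14), SFRP4 (-0.40), STC2 (0.23), MAP1B (-0.36), GSN (0.28), INSR (0.06), ELOVL2 (0.22), ACTA2 (-0.14), KDM4C (0.26), NCAM1 (0.05, -0.08 and 0.19), COL14A1 (0.01 and 0.09), SQSTM1 (-0.17), FANCI (0.10) and IDH2 (0.17). Of 65 genes named as not called that have others, 9 had another called on the same side and 5 on the other side. Changes in the called ones beside those given above were 0.42 in COL1A1, -0.29 in DMD, -0.29 and -0.43 in HSP90AA1, -0.36 in MET, 0.28 in PKM and 0.27 in RHEB, and in TCF3 4 of 12 others were called, to both sides.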

How the data were processed

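Total RNA of SJRH30 cells was amplified, labelled with biotin and hybridised to Affymetrix arrays, 1 sample an array, per the labels' protocols. The deposited values are on a log2 scale (2.72 to 14.5), and the submitters' processing notes name RMA, which corrects background, normalizes and summarises probes. The software version is not given in the sources used here. Array precision is limited by the number of arrays, 2 at each time.

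Of 22277 probe sets, 62 are controls and 19070 were assigned a single gene symbol by the platform annotation. Of these, 19058 were updated to RefSeq symbols (GRCh38.p14) through their Entrez number. Where a gene had several probe sets, the one with the highest mean over all arrays was kept, which gave 11963 genes. No filter on level was applied. Symbols are those current in RefSeq, and the annotation of the array can be old.

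A mean for each time was estimated from the 8 arrays together in limma 3.58.1 (R 4.3.3; lmFit and eBayes, 4 residual and 3.68 prior degrees of freedom), with Benjamini-Hochberg adjustment over 11963 genes at 0.05. On simulated data with 200 changed genes among 11963, for 24 h against 0 h, 72.9% of changes of 0.5 were recovered, 97.8% of changes of 1 and 100% of changes of 2, with 4.86% false calls over 20 simulations. The simulation drew errors independently for each gene. The data gave 2123 calls, far more than 200, so these shares need not hold for them. P-values measure the spread between these arrays.

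The genes, the 77 lists (2048 measured genes) and the comparisons were chosen with earlier results of these data known, and the lists were compiled from general knowledge of function. Named genes are ranks 9 to 30 of the calls in each direction, up to 6 called and 3 abundant uncalled members of a list, all HIF pathway components, the 15 brightest calls in each direction and the 8 largest calls between 12 and 24 h in each direction. Exceptions are stated where they occur. Not every gene that this rule admits is named. Alternatives were fits on 4 arrays, with the replicate number as a block, with an intensity trend or robust prior, with quantile or median scaling, without dim genes, with other choices of probe set, and without each array.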

Additional observations from a re-analysis of the deposited data

Results flagged for a closer look

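Between 12 and 24 h, 15 genes were singled out because the difference between these times was itself called by limma and was among the largest in its direction. Myoglobin, MB, and other muscle genes lead the rises together with secreted and scaffold proteins: SPAG4 changed by 0.83, MB by 0.82, IQGAP2 by 0.79, IGFBP5 by 0.71, MYL11 by 0.65, TGFBI by 0.63, MYOZ2 by 0.60 and TFF3 by 0.60 on the log2 scale. Among the 7 falls, NQO1 changed by -0.64, RUNX1-IT1 by -0.59, ANKRD36B by -0.59, GPRASP1 by -0.57, SPDYE2 by -0.55, CHST5 by -0.52 and REG1A by -0.43. All but NQO1 among these falls were higher on both 12 h arrays than on both 0 h arrays.

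Between 6 and 24 h, 333 genes differed by the same test. Of the control probe sets, which no comparison of genes uses, the 24 for poly-A RNA were higher at 24 h by a mean of 0.65. With groups of 2, single arrays that stand apart within a group were not looked for.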

How the results depend on the processing

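For 24 h against 0 h the 2123 calls became 825 without 0 h replicate 1 and 791 without 0 h replicate 2, the lowest of a range of 791 to 2169 over single arrays left out, and 806 and 771 of those calls were among the 2123. Every other alternative gave between 1702 and 2882 calls. For 24 h against 12 h the 29 calls became 404 with an intensity trend, 465 without the dimmer 50% of genes, 127 without the dimmest 25%, 17 with the most variable probe set and 18 with a robust prior. Leaving out single arrays gave 0 to 139 calls (limma; 1711 to 2348 at an unadjusted p under 0.05 in the fits with 0). For 24 h against 6 h the 333 calls became 1039 with the trend, 1037 and 623 without the dimmer 50% and dimmest 25%, and 18 to 359 without single arrays. The cause of these shifts was not tested.

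Same-numbered replicates did not deviate together across all genes. The correlations of their deviations ran from -0.113 to 0.086 over the 6 pairs of times. A pairing that touches few genes would not show in this check, and the labels state none. With the replicate number as a block there were 1858 calls for 24 h against 0 h, 0 for 24 h against 12 h (limma; 1962 at an unadjusted p under 0.05) and 157 for 24 h against 6 h.

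Of 244 genes named here and called at 24 h against 0 h, 209 kept the call without each array. 27 lost it without 0 h replicate 1 and 32 without 0 h replicate 2. The replicate block lost 3, the mean of probe sets 7, median scaling 0 and quantile scaling 0. With the most variable probe set, ATP5MC2 was at -0.022 and CTDSP2 was at -0.323 (opposite in sign to the value above). With the mean of probe sets, CTDSP2 was at -0.054 (opposite in sign to the value above). Arrays give no depth, and small changes may go uncalled. In the simulation, with 200 changed genes, 72.9% of changes of 0.5 were recovered, a share that need not hold here.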
